A study of Rattus norvegicus with 6 samples.

Results

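The 9 genes described here encode the main carriers that bring bile acids, steroid conjugates, drugs and organic ions from portal blood into rat hepatocytes: Slco1a1, Slco1a4, Slco1b2, Slco2b1, Slco2a1, Slc10a1, Slc22a3, Slc22a7 and Slc22a8. They were chosen by name, as carriers of the Slco, Slc10 and Slc22 families, from 15284 named rat genes with a probe on the array. The array held 13 probes for them out of 61657 probes, and 12 of those probes, for 8 of the 9 genes, were bright enough to test out of 37647 tested. The 8 tested genes stand among 11094 tested genes. All 12 tested probes were well above background on every array, so none entered through 1 group alone.

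Total liver RNA was hybridised to 6 Agilent 1-colour arrays, 1 array per sample, 3 from rats given tert-butyl alcohol (tBA) at 1000 mg/kg/day and 3 from rats given the vehicle. Both groups were male Sprague-Dawley rats, Crl:CD(SD), bought at 5 weeks of age, and the series text gives day 28 as the time of measurement. The sample labels name purified water as the vehicle, whereas the treatment protocol names corn oil and a dosing period of 9 weeks, and nothing in the labels settles either difference. The labels do not say whether RNA was pooled, and p-values measure the spread between the 3 samples of each group.

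Uptake across the sinusoidal membrane is the first step of hepatic clearance. Slc10a1 encodes the sodium-dependent bile acid carrier NTCP, the Slco genes encode sodium-independent organic anion transporting polypeptides with broad and overlapping substrates, and the Slc22 genes encode carriers of organic anions and organic cations. Several of these genes are known in rodent liver to depend on hepatocyte nuclear factors and on nuclear receptors that sense bile acids or foreign chemicals.

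None of the 8 tested uptake carriers passed the test between tBA and vehicle livers (limma, Benjamini-Hochberg adjusted p under 0.05 over all probes), and 0.0451% of all genes tested did. Slco1a4 lay 0.38 above the vehicle mean on the log2 scale and Slc10a1 lay 0.21 above it, while Slc22a7 lay 0.24 below it, and for these 3 genes the arrays of the 2 groups did not overlap. Non-overlap was thus found for 3 of 8 carriers, or 37.5%, against 24.2% of all genes tested. Slc22a8 stood apart in another way: 1 tBA liver was 1.90 log2 units below the lowest of the other 5 livers, and both Slc22a8 probes showed it.

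The stretches upstream of the 4 genes that carry these observations are shown first, so that the transcripts can be placed in the genome. Each is the 250 bases before the annotated start, read 5′ to 3′ on the gene's own strand from RefSeq promoter sequences of build GRCr8. Capitals mark a match on either strand to the nuclear receptor half-site AGGTCA.
Slco1a4: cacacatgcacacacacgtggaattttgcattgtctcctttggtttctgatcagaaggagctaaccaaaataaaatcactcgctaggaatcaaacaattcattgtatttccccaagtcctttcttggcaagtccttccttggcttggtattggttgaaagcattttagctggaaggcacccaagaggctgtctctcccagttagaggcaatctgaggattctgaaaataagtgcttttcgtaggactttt
Slc10a1: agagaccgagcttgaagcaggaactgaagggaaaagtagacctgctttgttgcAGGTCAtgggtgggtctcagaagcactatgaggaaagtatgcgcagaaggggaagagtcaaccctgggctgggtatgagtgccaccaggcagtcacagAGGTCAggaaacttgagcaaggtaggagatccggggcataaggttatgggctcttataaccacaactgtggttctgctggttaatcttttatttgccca
Slc22a7: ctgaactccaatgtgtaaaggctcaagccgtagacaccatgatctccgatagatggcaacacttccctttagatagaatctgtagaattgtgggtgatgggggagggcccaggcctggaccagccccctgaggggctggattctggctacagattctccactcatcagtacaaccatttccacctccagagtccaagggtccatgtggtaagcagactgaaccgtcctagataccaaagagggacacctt
Slc22a8: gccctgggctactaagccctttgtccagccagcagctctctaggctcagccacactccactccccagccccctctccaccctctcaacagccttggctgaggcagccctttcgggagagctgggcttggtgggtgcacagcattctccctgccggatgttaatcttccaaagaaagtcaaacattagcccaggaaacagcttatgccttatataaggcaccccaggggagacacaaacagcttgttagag
Slco1a4 lies on the minus strand of chromosome 4 and its upstream stretch is chr4:176495847-176496096. Slc10a1 lies on the minus strand of chromosome 6, with its stretch at chr6:106357945-106358194. Slc22a7 lies on the plus strand of chromosome 9, with its stretch at chr9:22045248-22045497. Slc22a8 lies on the plus strand of chromosome 1, with its stretch at chr1:214927034-214927283.

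AGGTCA on either strand occurred upstream of 2 of the 9 carriers, and in 14.1% of 33469 rat promoters of the same length. Counted from the base before the start as -1, it began at -197 and at -99 in Slc10a1 and, on the opposite strand, at -78 in Slco1b2. Both genes had positive differences between tBA and vehicle livers, as did 50.6% of all genes tested, and neither passed the test. The stretches shown for Slco1a4, Slc22a7 and Slc22a8 hold no match to these letters. Slco1a4 had the largest positive difference of the carriers, 0.38.

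All values are log2 processed signal minus the 75th percentile of the same array, so 0 is the signal at that percentile of the array. Signal depends on the probe as well as the transcript, so levels are compared between arrays and never between genes. Where a gene had several probes, the brightest stands for it, and for the carriers the others are given beside it. The arrays had between 61.5% and 66.9% of probes well above background, no saturated spots and 3 to 16 outlier spots, which were left out. Over probes, Pearson's r was 0.984 to 0.988 between a tBA and a vehicle array, and 0.989 to 0.991 between arrays of 1 group. One slide, scanned on 1 day, carried the 3 vehicle arrays and tBA replicate 1, and the other slide, scanned on another day, carried tBA replicates 2 and 3. Slide and treatment can therefore be told apart only through tBA replicate 1, and the difference within the first slide is given where it departs from the pooled one by over 1.5 times or in sign, or where a call turns on it.

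Slc10a1, the carrier of conjugated bile acids driven by the sodium gradient, was at 6.51, 6.36 and 6.57 in the tBA livers, against 6.27, 6.25 and 6.28 in the vehicle livers. All 3 tBA values lay above all 3 vehicle values, and the vehicle livers were close together, with a range of 0.034. The difference was 0.21 ± 0.091 (limma SE; 95% interval -0.0072 to 0.44), a fold of 1.16, with a limma adjusted p of 0.325. It was 0.090 after quantile normalization, with the same sign.

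Slco1a1, an organic anion carrier abundant in male rodent liver, was at 3.93, 3.82 and 3.85 in tBA livers, against 4.18, 3.95 and 3.88 in vehicle livers. The groups overlapped, and vehicle replicate 1 was the highest of the 6. The difference was -0.14 ± 0.11 (limma SE; 95% interval -0.40 to 0.12; adjusted p = 0.538). It was -0.052 without vehicle replicate 1 and -0.076 within the first slide.

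Slco1a4 encodes a carrier of bile salts, cardiac glycosides and steroid conjugates, and in rat liver it is a known target of the pregnane X receptor. Its brightest probe was at 5.48, 5.27 and 5.48 in tBA livers, against 5.10, 5.22 and 4.76 in vehicle livers. The groups did not overlap, although tBA replicate 2 exceeded vehicle replicate 2 by a small margin, and vehicle replicate 3 was the lowest of all. The difference was 0.38 ± 0.15 (limma SE; 95% interval 0.029 to 0.74), a fold of 1.30 with an interval of 1.02 to 1.67, and the limma adjusted p was 0.297. It was 0.25 without vehicle replicate 3.

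The other probes of Slco1a4 gave smaller differences of the same sign, and in both of them the groups overlapped. The second probe was at 3.16, 3.16 and 3.27 in tBA livers, against 3.03, 3.19 and 2.56 in vehicle livers, a difference of 0.27 (limma adjusted p = 0.461). The third was at 2.39, 2.51 and 2.56 in tBA livers, against 2.49, 2.44 and 1.77 in vehicle livers, a difference of 0.25 (limma adjusted p = 0.558). In all 3 probes vehicle replicate 3 was the lowest array.

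Slco1b2, the rodent counterpart of the human liver carriers OATP1B1 and OATP1B3, was at 5.20, 5.26 and 5.43 in tBA livers, against 5.24, 5.04 and 4.96 in vehicle livers. The groups overlapped, because vehicle replicate 1 lay above tBA replicate 1. The difference was 0.22 ± 0.12 (limma SE; 95% interval -0.060 to 0.50; adjusted p = 0.392). It was 0.14 after quantile normalization and 0.12 within the first slide.

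In the RefSeq annotation Slco1b2, Slco1a4 and Slco1a1 follow one another on chromosome 4, between Slco1c1 on one side and Slco1a3, Slco1a6 and Slco1a5 on the other. Slco1a6 was at -1.63, -1.38 and -1.38 in tBA livers, against -1.74, -1.64 and -2.29 in vehicle livers, without overlap, and its difference was 0.42 (limma adjusted p = 0.341). That difference was 0.22 without vehicle replicate 3 and 0.26 within the first slide. Slco1a5 differed by 0.032 (limma adjusted p = 0.935), and its sign turned within the first slide, to -0.099, without vehicle replicate 3, to -0.13, and without tBA replicate 2, to -0.0075. The genes of this cluster are near copies of one another, so cross-hybridisation between their probes is possible, and the probe sequences were not used here to check it.

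Slco2b1, a carrier of sulphated steroids and drugs, had 2 tested probes. The brightest was at 2.21, 2.31 and 2.56 in tBA livers, against 2.40, 2.58 and 2.45 in vehicle livers, and the groups overlapped. The difference was -0.12 ± 0.12 (limma SE; 95% interval -0.41 to 0.17; adjusted p = 0.646). The second probe was at 1.90, 1.82 and 2.38 in tBA livers, against 2.44, 2.49 and 1.95 in vehicle livers, and its groups overlapped as well, at a difference of -0.26 (limma adjusted p = 0.554). For the brightest probe the difference was -0.27 within the first slide, -0.22 without tBA replicate 3, -0.066 without vehicle replicate 2, -0.042 without tBA replicate 1 and -0.044 after centring arrays on their median.

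Slco2a1, the prostaglandin transporter, was at 1.73, 1.07 and 1.39 in tBA livers, against 1.57, 1.72 and 1.29 in vehicle livers. The tBA livers held both the highest and the lowest value of the 6. The difference was -0.13 ± 0.20 (limma SE; 95% interval -0.61 to 0.34; adjusted p = 0.756). Its sign was not stable: it was 0.20 within the first slide and 0.030 without tBA replicate 2, and -0.30 without tBA replicate 1. Of the endothelial genes listed as markers, which mark another cell type of the liver that can carry Slco2a1, 6 of 9 were tested, with 5 positive differences, 1 negative and a median of 0.17. Their summed signal, in multiples of the array's 75th percentile, was 52.6 to 54.9 in tBA livers, against 44.5 to 50.5 in vehicle livers. These ranges did not overlap, but most of the sum was Kdr. Kdr was at 5.39, 5.40 and 5.45 in tBA livers, against 5.13, 5.29 and 5.15 in vehicle livers. Taken singly, 2 of the 6 genes, or 33.3%, showed no overlap between groups, against 24.2% of all genes tested. The part of these genes in the Slco2a1 values was not tested. In RNA from whole tissue, fewer cells of a type and less RNA per cell cannot be told apart.

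Slc22a7, which encodes the organic anion transporter OAT2, was at 4.92, 4.90 and 5.01 in tBA livers, against 5.29, 5.17 and 5.10 in vehicle livers. All 3 tBA values lay below all 3 vehicle values, and it was the only one of the 8 tested carriers with such an order downwards. The difference was -0.24 ± 0.092 (limma SE; 95% interval -0.47 to -0.022), a fold of 0.844 with an interval of 0.724 to 0.985, and the limma adjusted p was 0.294. This was the lowest adjusted p of the 8 carriers.

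Slc22a3, which encodes an organic cation and monoamine transporter, stayed within background in all 6 livers. Its single probe read -7.11, -7.15 and -7.39 in tBA livers, against -7.06, -6.62 and -7.09 in vehicle livers, and no fold is given for it.

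Slc22a8 encodes the organic anion transporter OAT3, best known from the kidney proximal tubule. Its brightest probe was at 6.11, 4.10 and 6.21 in tBA livers, against 6.00, 6.35 and 6.37 in vehicle livers. Only tBA replicate 2 was low, and the other 5 arrays lay between 6.00 and 6.37. The second probe was at 2.03, -0.12 and 2.18 in tBA livers, against 2.13, 2.44 and 2.51 in vehicle livers, and again tBA replicate 2 was the only low array.

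The group difference of Slc22a8 was -0.77 ± 0.56 for the brightest probe (limma SE; 95% interval -2.14 to 0.60; adjusted p = 0.519) and -0.997 ± 0.61 for the second (adjusted p = 0.447). Without tBA replicate 2 the first of these was -0.080, and within the first slide it was -0.13. The gap between tBA replicate 2 and the lowest of the other 5 arrays was 1.90 for the brightest probe, a fold of 3.74, and 2.15 for the second.

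Among 11090 genes measured on all arrays, this gap was the 7th largest of those that set tBA replicate 2 below every other array. The 6 genes with larger gaps, named after their values were seen, were Tor3a at 2.51, Scd at 2.23, Il7 at 2.18, C17h6orf52 at 2.14, Nqo1 at 1.96 and Scd2 at 1.90. On tBA replicate 2, 52 genes lay more than 1 log2 unit below all other arrays, against 22 and 18 on tBA replicates 1 and 3 and 9, 14 and 37 on vehicle replicates 1, 2 and 3. The array also had the most outlier spots, 16, and the lowest share of probes well above background, 61.5%. Neither Slc22a8 probe was among its outlier spots, and both were well above background on it. Whether the state of the array had a part in the Slc22a8 value was not tested.

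Kidney tubule genes were listed because Slc22a8 is foremost a kidney transcript. Of 7 with a named probe, 4 were tested, with 2 positive and 2 negative differences and a median of -0.074, and Slc34a1 and Cdh16 were dark on every array. The largest difference among them was 1.01 for Slc12a3 (limma adjusted p = 0.0890). The summed signal of the kidney genes, in the same multiples, was 11.7 to 13.2 in tBA livers, against 10.9 to 12.2 in vehicle livers. Most of this sum was Aqp2, at 3.39, 3.38 and 3.59 in tBA livers, against 3.34, 3.47 and 3.32 in vehicle livers. With each tested kidney gene centred on its mean, their mean log2 value was 0.050, 0.034 and 0.095 in tBA livers, against 0.0088, 0.042 and -0.23 in vehicle livers. The part of these genes in the Slc22a8 values was not tested. Hepatocyte genes, 9 of 9 tested, had a median difference of 0.026, with 6 positive and 3 negative, and a summed signal of 4966 to 5245 in tBA livers, against 4973 to 5388 in vehicle livers. The median difference was 0.14 for 5 bile duct genes, -0.059 for 7 stellate cell genes and -0.19 for 7 macrophage genes, and no gene of these marker lists passed the limma test after adjustment.

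Slc22a6, which encodes the related organic anion transporter OAT1, neighbours Slc22a8 on chromosome 1. It was at -1.70, -2.65 and -2.11 in tBA livers, against -1.79, -1.91 and -1.96 in vehicle livers. Here too tBA replicate 2 was the lowest, by a smaller margin, and the groups overlapped at a difference of -0.27 (limma adjusted p = 0.593). The value was 0.19 within the first slide, -0.018 without tBA replicate 2, -0.50 without tBA replicate 1 and -0.091 after normexp background correction.

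**Figure D1:**
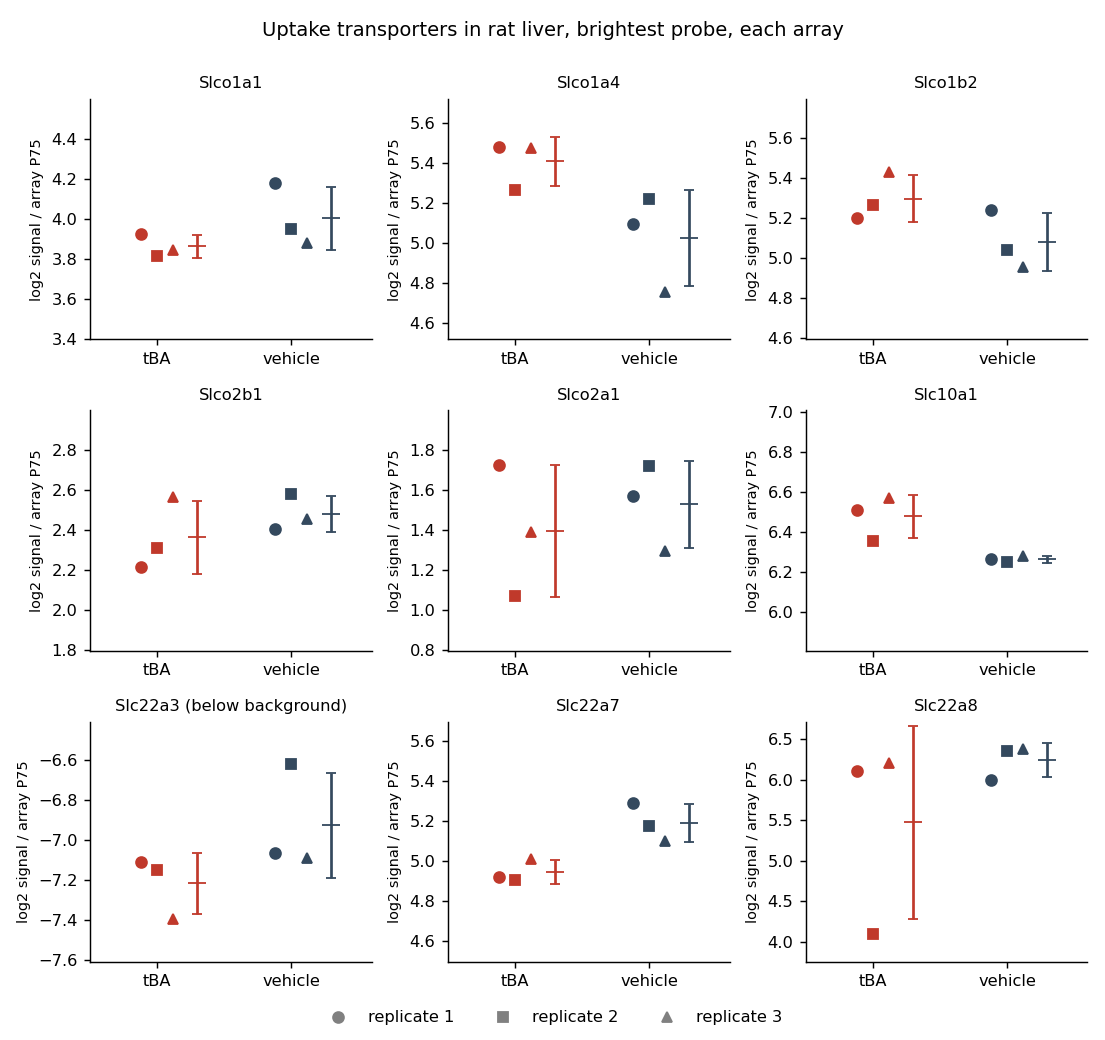
Log2 signal minus the array's 75th percentile (vertical axis, scaled separately for each gene) of the brightest probe of each of the 9 uptake carriers on the 3 tBA arrays (red, left) and the 3 vehicle arrays (blue, right); bars give the mean ± SD of each group. Slco1a4, Slc10a1 and Slc22a7 show no overlap between groups among the tested genes, and tBA replicate 2 of Slc22a8 lies at 4.10, below the range of 6.00 to 6.37 of the other 5 arrays.

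**Figure D2:**
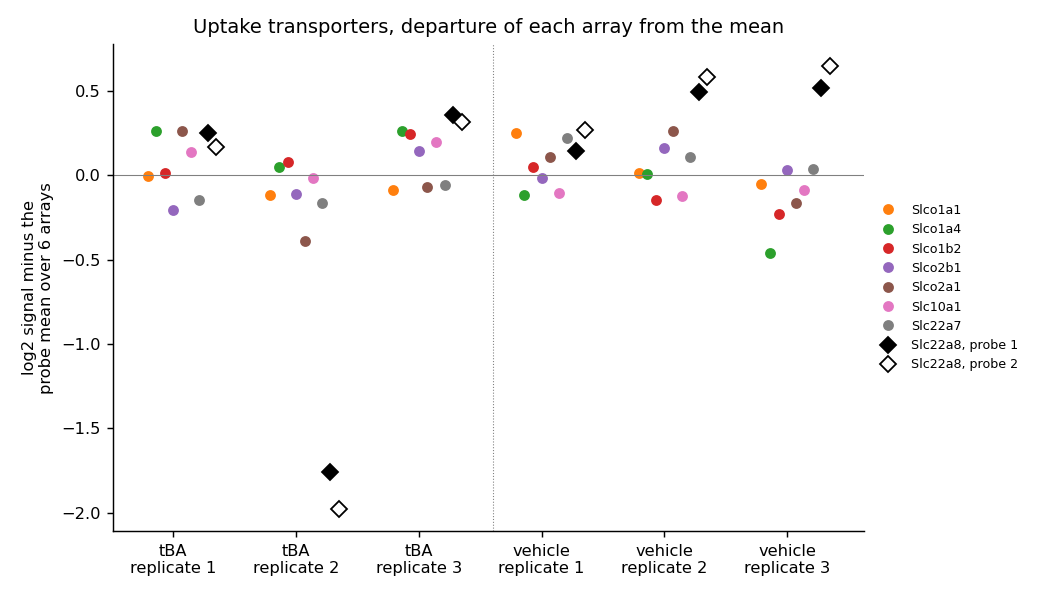
Departure of each array from the probe's mean over the 6 arrays (vertical axis, log2) for the 8 tested carriers by their brightest probe, with both probes of Slc22a8 as diamonds; arrays stand along the horizontal axis, tBA on the left. The diamonds of tBA replicate 2 are far below all other points. The lowest Slco1a4 point is that of vehicle replicate 3, whose value before the mean was taken off was 4.76.

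Seen as a set, the carriers had no common direction. Of the 8 tested, 3 had positive differences and 5 negative ones, and 50.6% of all genes tested had positive ones. The median difference of the carriers was -0.12, and that of all genes tested was 0.0032. The median size of the difference, without its sign, was 0.217 for the carriers and 0.156 for all genes. The 5th to 95th percentiles of all genes ran from -0.54 to 0.43, and Slc22a8 alone among the carriers lay outside them.

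At an unadjusted limma p under 0.05 there were 2 of the 8 carriers, Slco1a4 and Slc22a7, in opposite directions, and 15.1% of all genes tested reached it. Non-overlap with tBA higher was found for Slco1a4 and Slc10a1, and for 12.8% of all genes. Non-overlap with tBA lower was found for Slc22a7, and for 11.3% of all genes. An exact permutation test of 3 arrays against 3 cannot give a two-sided p under 0.1. The spread between replicates, as the median over genes of the within-group SD, was 0.138 for the carriers and 0.160 for all genes.

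**Figure D3:**
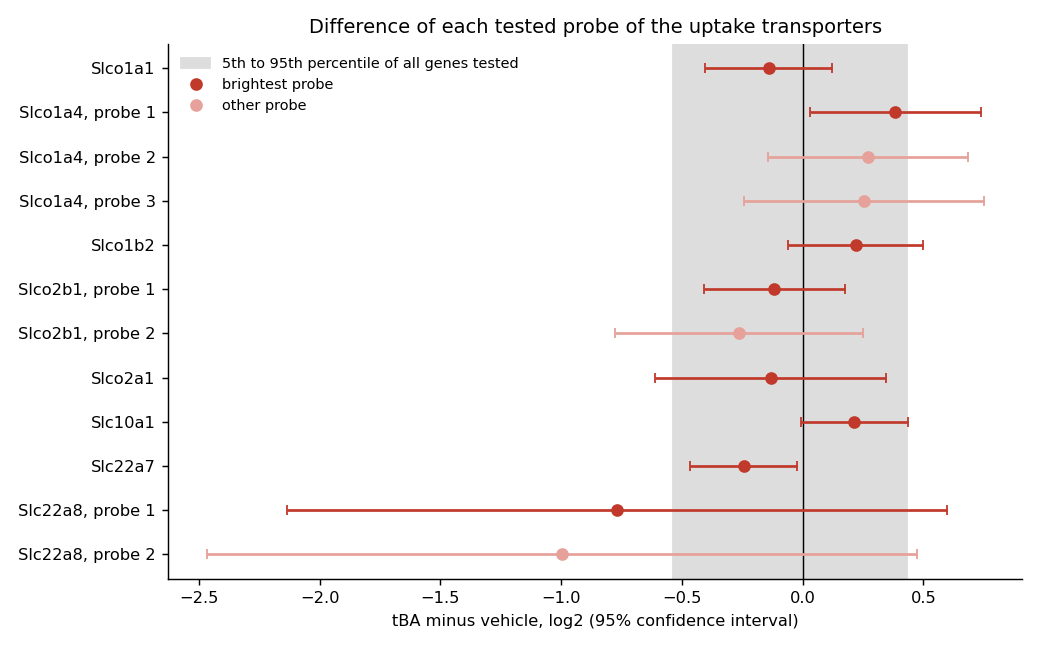
The tBA minus vehicle difference of each of the 12 tested probes (horizontal axis, log2) with its 95% confidence interval from limma; dark points are the brightest probe of a gene, pale points its other probes, and the grey band is the 5th to 95th percentile of all genes tested. The interval is above 0 for the brightest Slco1a4 probe, 0.029 to 0.74, and below 0 for Slc22a7, -0.47 to -0.022, and it is widest for the Slc22a8 probes.

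The carriers were next set beside other genes of hepatic transport. Of 37 other uptake and exchange carriers of the SLC family, 34 had a named probe and 28 were tested. None passed the limma test after adjustment, 15 had positive and 13 negative differences, and the median was 0.016. At an unadjusted limma p under 0.05 there were 6 of the 28, 4 positive and 2 negative, against 15.1% of all genes tested. Slc13a5, the hepatic citrate carrier, was at 2.10, 1.12 and 2.41 in tBA livers, against 0.47, 1.13 and 0.083 in vehicle livers, a difference of 1.31 ± 0.40 (limma SE; adjusted p = 0.252) with overlap between tBA replicate 2 and vehicle replicate 2. Slc27a5, the bile acid coenzyme A ligase, differed by 0.70 ± 0.19 (limma SE; adjusted p = 0.231), and Slc16a10, an aromatic amino acid carrier, by 0.83 ± 0.29 (limma SE; adjusted p = 0.277). Slc22a15 differed by -0.56 ± 0.19 (limma SE; adjusted p = 0.277), and by -0.32 within the first slide.

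Of 16 export carriers that move bile acids, conjugates, sterols or copper out of the hepatocyte, 14 were tested. None passed the limma test after adjustment, 6 had positive and 8 negative differences, and the median was -0.19. At an unadjusted limma p under 0.05 there were 5 of the 14, of which 2 were positive, against 15.1% of all genes tested. Abcc3, the basolateral exporter of conjugates also known as MRP3, was at -1.52, -0.64 and -0.72 in tBA livers, against -2.86, -3.12 and -2.73 in vehicle livers. Its difference of 1.94 ± 0.25 had a limma adjusted p of 0.0859. Within the first slide it was 1.38 (limma adjusted p = 0.348). It passed the test only without tBA replicate 1 (limma adjusted p = 0.0355), and that comparison leaves no tBA array on the slide of the vehicle arrays.

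The sterol exporter gene Abcg5 was at 1.41, 1.81 and 1.95 in tBA livers, against 2.29, 2.77 and 2.22 in vehicle livers, a difference of -0.70 ± 0.20 (limma SE; adjusted p = 0.242). Its partner Abcg8 was not well above background on any tBA array and was well above it on all 3 vehicle arrays. Its measured means were -5.99 in tBA livers and -4.05 in vehicle livers. It entered the test through the vehicle arrays alone, and its dim tBA signals do not fix the size of a fold. The fitted difference of Abcg8 was -0.45 after normexp background correction and -3.19 within the first slide. Atp7b, the copper-transporting ATPase, differed by -0.78 ± 0.15 (limma SE; adjusted p = 0.176). Its 3 probes ran from -0.78 to -0.10, and their mean differed by -0.55.

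All 20 transcription factors listed as regulators of uptake carrier genes were tested. None passed the limma test after adjustment, 13 had positive and 7 negative differences, and the median was 0.10. At an unadjusted limma p under 0.05 there were 5 of the 20, against 15.1% of all genes tested. Onecut1, the hepatocyte nuclear factor HNF6, was at 1.91, 4.03 and 2.38 in tBA livers, against 5.03, 5.76 and 5.12 in vehicle livers. All tBA values lay below all vehicle values, and the difference was -2.53 ± 0.55 (limma SE; adjusted p = 0.189), with -2.49 for its other probe.

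Cebpa, a factor of the differentiated hepatocyte, differed by -0.57 ± 0.14 (limma SE; adjusted p = 0.216). Nr3c1, the glucocorticoid receptor, differed by -0.32 ± 0.076 (limma SE; adjusted p = 0.204), and by -0.19 as the mean of its 3 probes. Nr1i3, the receptor CAR, differed by 0.89 ± 0.31 (limma SE; adjusted p = 0.282), and by 0.55 without vehicle replicate 3, the array that was also the lowest for Slco1a4. Hnf4a differed by 0.21 (limma adjusted p = 0.400), and by 0.34 within the first slide. Nr1i2, which encodes the pregnane X receptor, was at 6.49, 6.41 and 6.59 in tBA livers, against 6.29, 6.28 and 6.12 in vehicle livers. Its difference was 0.27 ± 0.097 (limma SE; adjusted p = 0.285), and its part in the Slco1a4 values was not tested.

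Of 15 genes of bile acid synthesis and conjugation, 14 were tested. None passed the limma test after adjustment, 8 had positive and 6 negative differences, and the median was 0.054. At an unadjusted limma p under 0.05 there were 5 of the 14, 4 of them positive, against 15.1% of all genes tested. Akr1d1, the steroid reductase of the pathway, was at 5.09, 4.96 and 5.11 in tBA livers, against 4.44, 4.52 and 4.34 in vehicle livers, a difference of 0.62 ± 0.094 (limma SE; adjusted p = 0.118). Cyp27a1, the mitochondrial sterol hydroxylase of bile acid synthesis, differed by 0.63 ± 0.14 (limma SE; adjusted p = 0.194). Hsd17b4, a peroxisomal enzyme of side-chain shortening, differed by 0.34 ± 0.090 (limma SE; adjusted p = 0.220), and by 0.21 after quantile normalization.

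**Figure D4:**
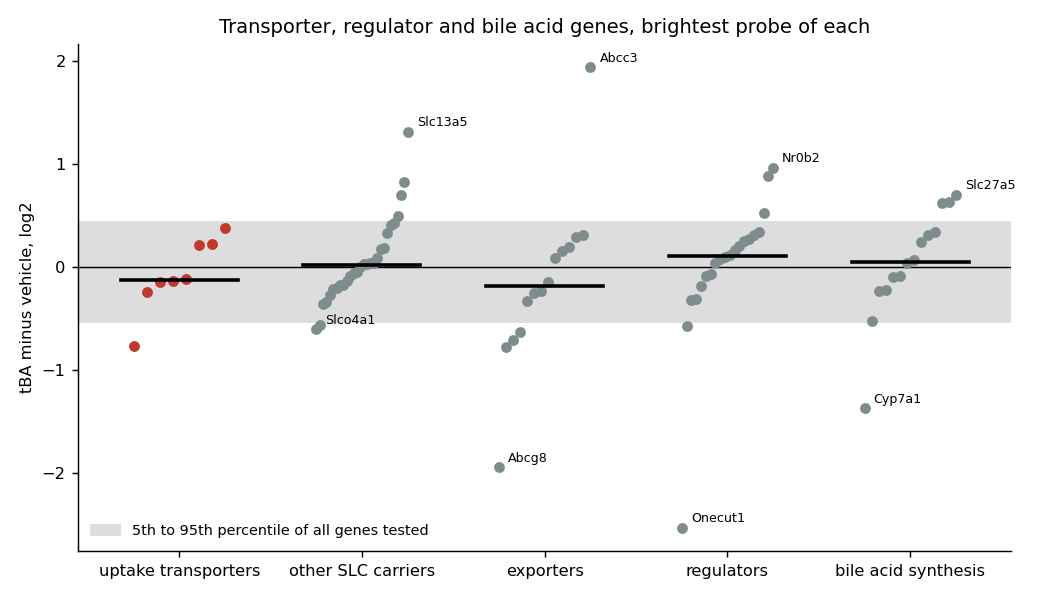
The tBA minus vehicle difference (vertical axis, log2) of the tested genes of each list by their brightest probe, with the list's median as a black bar and the 5th to 95th percentile of all genes tested as a grey band; the uptake carriers are in red. The medians of the 5 lists drawn lie between -0.19 and 0.10, and the extremes are Abcc3 at 1.94 and Onecut1 at -2.53. The point of Abcg8 is its fitted value, with the tBA arrays not well above background.

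The 3 carriers with the widest range over the 6 arrays were Slc22a8 at 2.28, Slco1a4 at 0.72 and Slco2a1 at 0.66. For each, the most similar profiles among named genes were sought as the smallest root mean square difference over the 6 arrays after centring each gene on its mean, as a description. For Slc22a8 these were Fcer2 at 0.159 and Btg1b at 0.216, and both were lowest on tBA replicate 2. On that array Btg1b was well above background and Fcer2 was not. For Slco1a4 they were Cd302 at 0.0556 and Tsacc at 0.0642, both lowest on vehicle replicate 3. For Slco2a1 they were Ier5l at 0.0341 and Xylb at 0.0543, again lowest on tBA replicate 2. All these genes share the 6 arrays and their scaling.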

How the data were processed

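Per the file headers, the authors extracted 1-colour Cy3 arrays with Feature Extraction 10.7.1.1 from Agilent. The deposited files give each spot's intensity, and the processed signal was used. The authors' deposited series table holds a ratio: that signal divided by 1 number per array, found by comparison with the scanner files. The number of arrays limits the precision. Control and outlier spots were left out, and log2 values were taken relative to the array's 75th percentile. Testing was limited to probes that the 3 arrays of 1 group or both measured well above background. Probes were named by matching accessions to RefSeq (GRCr8): 27460 of 61657 matched, for 15284 symbols. limma 3.58.1 (R 4.3.3) compared 3 tBA with 3 vehicle arrays, adjusted by Benjamini-Hochberg over 37647 probes. On simulated data it recovered 61.1% of 2-fold and 93.4% of 4-fold changes, with 5.74% of calls false. The simulated noise was independent, with no slide effect and no outlying array, so these shares need not hold for the real arrays. The labels give the groups the same replicate numbers, and deviations of same-numbered arrays correlated at -0.056, -0.064 and 0.014, so the numbers were not taken as pairs. The members and lists were chosen with earlier results of these data known. Named genes are all members, up to 4 genes of each list by smallest p, and the 2 nearest profiles of the 3 most variable members. Outside this rule, Slco1a5, Slco1a6 and Slc22a6 were named as neighbours of members, Hnf4a as a regulator and Nr1i2 as the receptor named with Slco1a4. Nr1i2 and the genes lowest on tBA replicate 2 were named after their values were seen. Alternatives covered background correction, scaling, the filter on dim probes, the variance model, slide, replicate block, the probe standing for a gene and each array left out. The normexp alternative used the median spot signal. Some genes of the lists, counted in their totals, are not reported here by name.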

Additional observations from a re-analysis of the deposited data

How the results depend on the processing

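None of the 8 tested carriers passed the limma threshold under any of the 19 alternatives, where 0 to 3 of them had an unadjusted p under 0.05 and the lowest adjusted p was 0.202. Of 152 carrier differences under alternatives, 149 kept their sign. The 3 that reversed were of Slco2a1: 0.20 with slide as a fixed block, 0.20 on the first slide alone and 0.030 without tBA replicate 2. With an array left out Slco2a1 ran from -0.30 to 0.030. The filters on dim probes, the intensity trend and the replicate block leave every fitted difference unchanged, so no sign could turn under them. The mean of probes does the same for genes with 1 tested probe. Slide as a fixed block and the first slide alone give the same difference, because the second slide holds no vehicle array. The carriers' median was 0.023 with slide as a fixed block and on the first slide alone, and -0.17 to -0.025 with an array left out. Of 43 probes called over the whole array, the count was 18 with no filter on dim probes, 68 with an intensity trend, 20 with slide as a fixed block and 6 with the replicate block. It was 0 when a probe had to exceed background in all 6 livers, and 0 on the first slide alone, where limma gave 5637 and 2956 probes at an unadjusted p under 0.05. With an array left out it ran from 6, without tBA replicate 2, to 45. The replicate block changed no carrier's call. Slco1a5 reversed to -0.099 with slide as a fixed block and on the first slide alone, and ran from -0.13 to 0.14 with an array left out. Slc22a6 reversed to 0.19 with slide as a fixed block and on the first slide alone. The cause of these changes was not tested. Signal over background limits Slc22a3 and Abcg8.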
